A study of Homo sapiens with 3 samples.

Results

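The genes examined here were 9 tight junction genes of the brain barrier: the claudin genes CLDN5, CLDN1, CLDN11 and CLDN12, the MARVEL family genes OCLN and MARVELD2, the scaffold gene TJP1 and the junctional adhesion molecule genes F11R and JAM2. They were taken by symbol from a list of known junction components, and all 9 matched the 20037 protein-coding genes of a RefSeq gene table of GRCh38.p14. Chromatin accessibility was read from 1 ATAC-seq library (replicate 2) of hCMEC/D3, human endothelial cells of brain microvessels that were immortalized and, for this study, grown to confluence on rat tail collagen. In ATAC-seq a transposase, Tn5, inserts adapters into open chromatin, and a peak is a region where the resulting tags accumulate. The series also holds 2 RNA-seq libraries of the same line, which were not used here because their rows are transcripts that the reference tables do not link to genes. The labels name no treatment and no other cell type, and 1 ATAC library was analysed here, so every value is that of a single library of a single cultured line, with no replicate check and no test.

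Tight junctions close the space between neighbouring endothelial cells and are the main reason that small polar molecules do not pass between cells from blood into brain. Claudins form the strands that cross the gap, occludin and tricellulin are four-pass membrane proteins of the MARVEL family within those strands, and the junctional adhesion molecules are immunoglobulin-type receptors on the cell surface. ZO-1, the product of TJP1, is a cytoplasmic scaffold that ties claudins and occludin to the actin cytoskeleton.

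All 9 genes had at least 1 peak within the gene or 10 kb either side, as did 89.8% of all protein-coding genes. All 9 also had a peak within 1 kb of one of their ends (95% Wilson interval over genes 70.1% to 100%), against 72.8% of all protein-coding genes. In total 55 peaks were found: 12 at gene ends, 32 inside genes and away from the ends, and 11 in the flanks. They ran from 200 to 2303 bp in length and from 9.31 to 69.5 tags in pileup, the number of stacked tags that the peak caller reports. In the broad mode used, pileup is a mean over the whole peak and not the height at a summit. Higher peaks below are higher in that mean. The fold of a peak, its pileup over the background the caller estimated nearby, ran from 1.88 at a peak inside TJP1 to 10.1 at another. Peaks at gene ends were the longest and highest, with medians of 880 bp and 36.6 tags, compared with 424.5 bp and 22.6 tags inside the genes. Flank peaks had medians of 473 bp and 21.3 tags. Over all protein-coding genes, end peaks were also the longest and highest, at 970 bp and 41.4 tags, compared with 417 bp and 20.5 tags inside and 484 bp and 27.1 tags in the flanks. In fold the places ordered differently: the median was lowest at the ends of the 9 genes, 4.01 against 4.47 inside and 4.58 in the flanks, and highest at the ends over all protein-coding genes, 4.72 against 4.39 and 4.25.

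The library was checked against marker genes of the labelled cell type. An end peak was found for 10 of 10 endothelial markers. CDH5, which encodes VE-cadherin, reached 62.6 tags, but the median end pileup of these markers was 34.99 tags. Of them, 3 lay above 45.7 tags, the median of all protein-coding genes with an end peak. Among markers of brain endothelium, 7 of 8 had an end peak, and SLCO1C1, an organic anion transporter gene, had no peak at all. The count was 3 of 6 for epithelial genes, with none at CDH1, GRHL2 and ESRP1. Of the epithelial genes with an end peak, EPCAM had 9.31 tags. KRT8 and KRT18 had the same value, 77.4 tags, the highest of all the markers. Whether they share that peak was not checked, so they may not be separate cases. Mural cell genes had an end peak in 4 of 4 cases and astrocyte and neuron genes in 3 of 4. End peaks were thus found in every list, the other cell types included. The 95% Wilson interval of each list's share, from 72.2% to 100% for the endothelial list to 18.8% to 81.2% for the epithelial one, includes the 72.8% of all protein-coding genes.

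**Figure D1:**
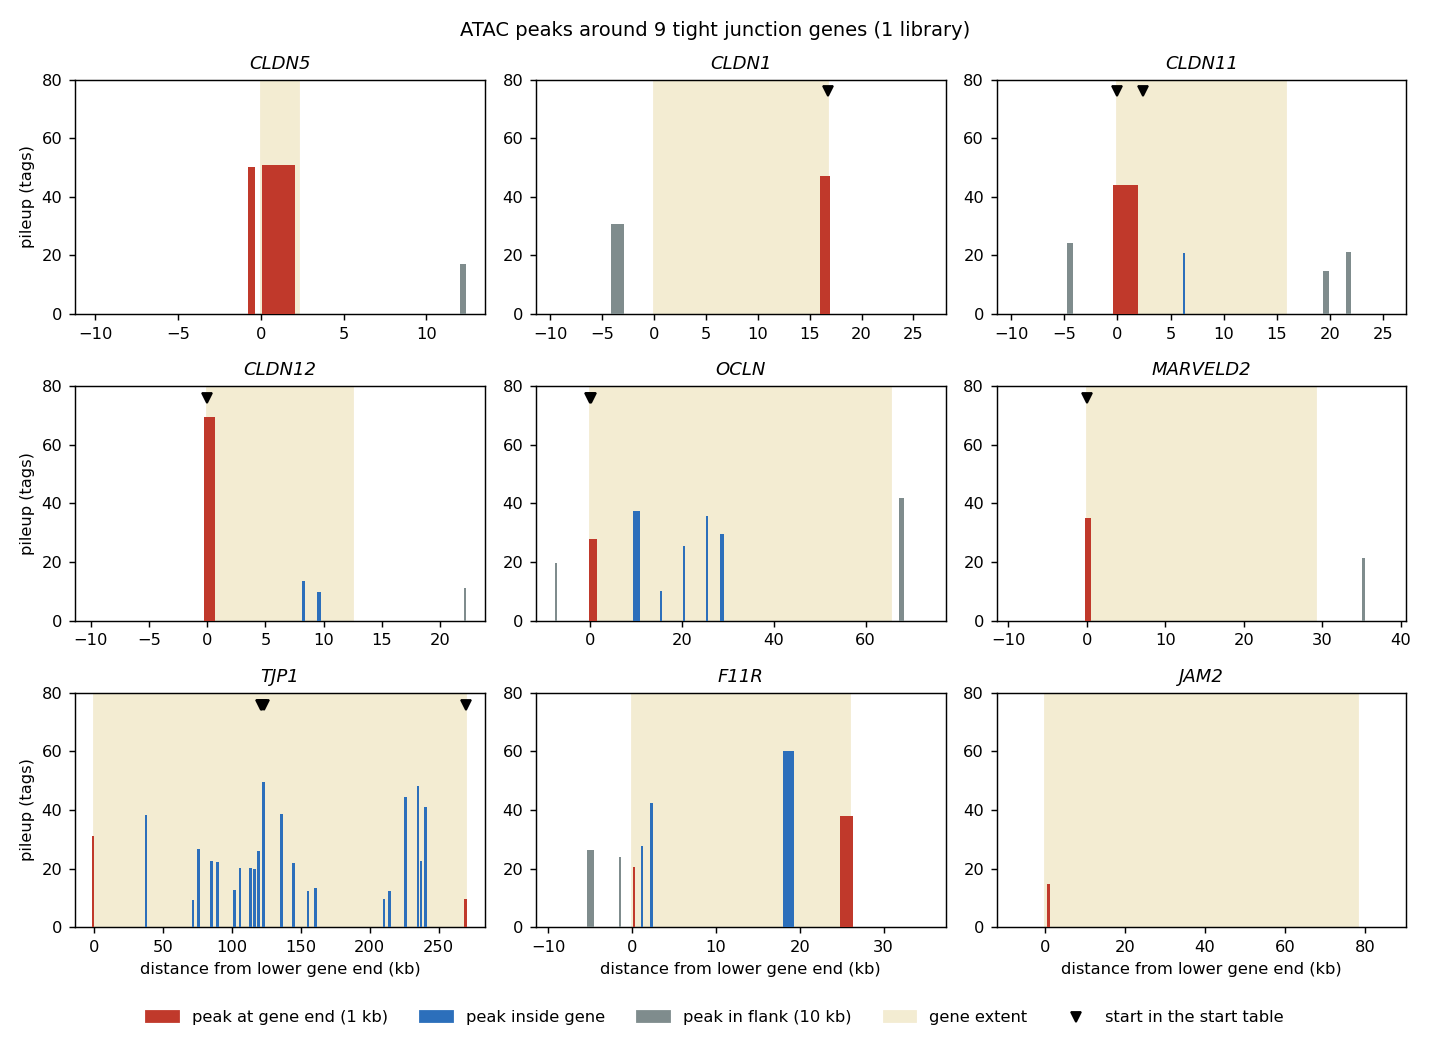
Peaks around each of the 9 genes in the ATAC library. The x axis is the distance in kb from the lower-coordinate end of the gene, the y axis is the peak's pileup in tags, the shaded span is the gene extent, triangles are starts in the RefSeq start table, and narrow peaks are drawn wider than to scale so that they can be seen. CLDN12 has the highest end peak, at 69.5 tags, TJP1 carries 23 peaks, and JAM2 has 1.

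The RefSeq table of start sites, which gives the strand and the sequence around each start, held 11 starts for 6 of the genes: 1 each for CLDN1, CLDN12 and MARVELD2, 2 each for CLDN11 and OCLN, and 4 for TJP1. CLDN5, F11R and JAM2 were not matched in it. All 6 genes had a peak within 1 kb of a start, against 73.9% of the 15843 protein-coding genes with an entry. The window from 250 bases before to 50 after the start was touched by a peak at 8 of the 11 starts, against 51.9% of the 35116 windows of all genes. Those windows belong to 27305 genes, noncoding genes included, whereas the 6 genes here are all protein-coding. A share over protein-coding windows alone is not given. The 3 windows outside peaks were the downstream start of CLDN11 and the most upstream and most downstream starts of TJP1.

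The 250 bases before the start are shown for the most upstream listed start of each of the 6 genes. For TJP1 an internal start that differed in peak coverage is also shown. These are stretches that the peaks do or do not cover. Sequences are from RefSeq, GRCh38.p14, written 5′ to 3′ on the gene's strand. Capitals mark GGGCGG, the GC box bound by SP and KLF factors, and AGGAAG, a core of sites for ETS factors, on either strand. The intervals are chr7:90403211-90403460 (+ strand) for CLDN12, chr5:69414866-69415115 (+) for MARVELD2, chr3:190322447-190322696 (- strand) for CLDN1, chr3:170418618-170418867 (+) for CLDN11 and chr5:69492297-69492546 (+) for OCLN. For TJP1 they are chr15:29969050-29969299 (-) for the upstream start and chr15:29822469-29822718 (-) for the internal start.
CLDN12: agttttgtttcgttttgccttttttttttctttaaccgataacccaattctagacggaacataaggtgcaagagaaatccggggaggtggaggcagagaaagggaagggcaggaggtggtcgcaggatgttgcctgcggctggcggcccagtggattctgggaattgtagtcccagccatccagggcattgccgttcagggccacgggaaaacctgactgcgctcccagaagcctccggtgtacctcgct
MARVELD2: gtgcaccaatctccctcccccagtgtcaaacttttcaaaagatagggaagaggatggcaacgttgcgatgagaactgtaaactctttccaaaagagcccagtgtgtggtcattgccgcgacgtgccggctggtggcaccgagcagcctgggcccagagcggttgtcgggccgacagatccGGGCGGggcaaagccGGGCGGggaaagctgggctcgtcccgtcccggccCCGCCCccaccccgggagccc
CLDN1: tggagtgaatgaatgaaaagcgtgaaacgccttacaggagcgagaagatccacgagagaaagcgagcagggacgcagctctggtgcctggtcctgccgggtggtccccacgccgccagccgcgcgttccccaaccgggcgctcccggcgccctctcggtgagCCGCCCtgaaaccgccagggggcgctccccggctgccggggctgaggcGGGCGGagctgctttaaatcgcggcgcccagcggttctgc
CLDN11: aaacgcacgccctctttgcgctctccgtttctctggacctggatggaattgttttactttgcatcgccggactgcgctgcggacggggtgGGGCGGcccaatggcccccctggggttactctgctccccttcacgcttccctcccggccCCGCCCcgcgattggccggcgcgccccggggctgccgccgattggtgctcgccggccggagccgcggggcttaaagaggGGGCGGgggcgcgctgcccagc
OCLN: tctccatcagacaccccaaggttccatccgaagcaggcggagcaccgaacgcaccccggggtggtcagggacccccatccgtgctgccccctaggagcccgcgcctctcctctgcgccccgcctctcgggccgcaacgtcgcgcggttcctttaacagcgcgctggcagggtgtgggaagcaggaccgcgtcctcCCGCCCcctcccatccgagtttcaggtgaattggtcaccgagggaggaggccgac
TJP1 upstream start: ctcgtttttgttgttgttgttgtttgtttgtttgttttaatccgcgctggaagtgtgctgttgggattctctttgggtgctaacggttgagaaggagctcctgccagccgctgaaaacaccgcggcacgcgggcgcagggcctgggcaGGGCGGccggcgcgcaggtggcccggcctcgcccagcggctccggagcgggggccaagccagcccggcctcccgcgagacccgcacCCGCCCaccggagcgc
TJP1 internal start: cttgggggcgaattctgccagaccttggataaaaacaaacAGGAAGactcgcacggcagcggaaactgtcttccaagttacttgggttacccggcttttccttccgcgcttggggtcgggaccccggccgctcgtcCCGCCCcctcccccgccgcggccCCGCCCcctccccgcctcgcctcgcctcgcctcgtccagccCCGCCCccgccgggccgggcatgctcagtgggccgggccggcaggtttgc

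Peaks covered 239 of the 250 bases at CLDN12, 203 at OCLN and all 250 at MARVELD2, CLDN1, CLDN11 and the internal start of TJP1. They covered 0 at the upstream start of TJP1. CLDN12, with the highest pileup, had the lowest GC content of these stretches, 54.4%, and neither capitalised motif within the stretch. AGGAAG lay past the start, outside the stretch shown, at CLDN12, OCLN and MARVELD2, by 9, 40 and 36 bases. The uncovered upstream start of TJP1 had 66.8% GC and 2 GC boxes, compared with 70.4% and 3 GC boxes at the covered internal start shown. Over the whole windows of 300 bases, the 3 outside peaks differed among themselves: the upstream start of TJP1 had 70.0% GC, the downstream start of CLDN11 49.0% and the most downstream start of TJP1 35.7%, with no GC box. The 8 windows that a peak touched had 56.0% to 72.0%. Among the windows of all genes, a peak touched 13.2% of those at or below the lower quartile of GC content and 84.96% of those above the upper quartile.

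Over the whole windows of 300 bases, GGGCGG was present in 8 of the 11 windows, against 45.0% of the windows of all genes, and in 6 of the 8 that a peak touched, against 68.6% of all windows with a peak. In this paragraph too, the windows of all genes include those of noncoding genes. AGGAAG was present in 7 of 11, against 33.6% of all windows. CACCC, a KLF-type site, was present in 8 of 11, against 59.9%. CACCTG, the E box read by SNAI and ZEB factors, was present in 3 of 11, against 20.6%, in both OCLN windows and at the upstream start of TJP1. ACAAAG, a core shared by SOX and TCF/LEF sites, was present in 2 of 11, against 16.1%, at the most downstream starts of CLDN11 and TJP1, neither of which a peak touched. The longer ETS site CCGGAAGT (4.14% of all windows), the SOX site ACAATGG (3.16%), the forkhead site TGTTTAC (3.42%), the AP-1 site TGANTCA (7.71%) and the TATA box letters TATAAA (11.5%) were in none of the 11. All motifs were searched on both strands. ACAATGG shares its first letters with ACAAAG, CCGGAAGT shares GGAAG with AGGAAG, and the windows of a gene can overlap, so these counts are not independent.

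Among the claudins, CLDN5 encodes the most abundant claudin of brain endothelium and CLDN12 a claudin found in many tissues. The CLDN5 gene, 2.31 kb long on chromosome 22, was covered over 86.6% of its length by a single peak of 2005 bp from 19523064 to 19525068, with a pileup of 51.0 tags. Of all peaks at any place 0.592% were as long, and end peaks over all protein-coding genes had a longer median, 970 bp, than peaks elsewhere. A peak of 409 bp lay 367 bp outside the lower end, from 19522249 to 19522657, with 50.1 tags. Peaks thus covered most of CLDN5 and part of the stretch beside it. The folds of these peaks were low, 2.82 and 2.73, over local backgrounds of 17.5 and 17.7 tags. Of the similar-length genes with an end peak, 93.1% had an end fold at least as high. The closest other gene, CDC45, ended 2.41 kb away, and no peak of CLDN5 lay within 1 kb of another gene's end.

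CLDN12 combined a shorter peak with a high fold. Its start peak on chromosome 7, from 90403222 to 90404098, was 877 bp long. It reached 69.5 tags, and its fold was 8.86 over a background of 6.95 tags. Pileup was this high in 3.29% of all peaks and fold in 2.2%. Of the similar-length genes with an end peak, 15.8% reached that pileup and 1.83% that fold. The other 3 peaks of CLDN12 were weak, with 13.7 and 9.65 tags inside the gene and 11.2 tags in the flank, compared with the 69.5 tags at the start.

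CLDN1, whose product seals epithelial and epidermal junctions, had its start peak on chromosome 3 from 190321749 to 190322714, with 47.0 tags and a fold of 5.44. No peak lay elsewhere in its 16.7 kb, and a flank peak of 1264 bp lay 2863 bp beyond the other end, with 30.9 tags. CLDN1 lies wholly within the extent of CLDN16 on the other strand, so peaks here belong to both genes by position. CLDN16 itself had 11 peaks and none at its ends.

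CLDN11, known as the claudin of myelin and of the testis barrier, had the longest of the 55 peaks, 2303 bp from 170418461 to 170420763 on chromosome 3. It had 44.0 tags and a fold of 3.13 over a local background of 13.4 tags, and 0.210% of all peaks at any place were as long. The peak held the upstream start and stopped 463 bp short of the second start. The remaining 4 peaks had 14.8 to 24.3 tags. CLDN5 and CLDN11 thus each had a long end peak of low fold, whereas the end peaks of CLDN12 and CLDN1 were under 1000 bp and of higher fold.

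In the MARVEL family, OCLN encodes occludin and MARVELD2 encodes tricellulin, which seals the points where 3 cells meet. The genes lie 48.2 kb apart on chromosome 5 on the same strand. The start peak of OCLN, from 69492344 to 69494065, was 1722 bp long, held both annotated starts and had 28.0 tags and a fold of 4.09. Of the similar-length genes with an end peak, 79.9% had a pileup at least as high. Its start was not its highest peak: inside the gene, 5 peaks followed within the lower part of its 65.6 kb, with 37.4, 10.03, 25.6, 35.7 and 29.6 tags in order of position. The remaining 36.4 kb up to the far end held none. The highest peak counted for OCLN, with 41.7 tags and a fold of 6.74, lay 1758 bp beyond that end and contained the start of the neighbouring gene GTF2H2C. Chromosome 5 also carries OCLNP1, a transcribed pseudogene of 18.9 kb named for OCLN. It carries the related gene GTF2H2 and the transcribed pseudogene GTF2H2B as well. Tags from near-identical copies can be assigned to more than one place or dropped, and the treatment of such tags is not given in the sources used here, so the downstream values of OCLN are uncertain.

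MARVELD2 had a compact start peak of 806 bp from 69414820 to 69415625, with 35.1 tags and a fold of 7.35 over 3.91 tags. Among similar-length genes with an end peak, 73.6% had as high a pileup but only 9.14% as high a fold. The downstream end of RAD17, a checkpoint gene, lies 314 bp from the gene, and the peak falls within 1 kb of it. The rest of MARVELD2 held no peak over 28.7 kb, and a flank peak 5796 bp beyond it had 21.3 tags.

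TJP1, 270 kb long on chromosome 15, had 23 peaks, of which 21 lay inside it. Its peak with the highest pileup was internal, from 29821402 to 29823293, 1892 bp long with 49.4 tags and a fold of 3.54 over a background of 13.3 tags. That peak contained 2 of the 4 annotated starts. The most upstream start, at the far end of the gene, had only a peak of 387 bp at 212 bp from it, with 9.50 tags, a level that 97.0% of all peaks reached. The internal peak had 5.20 times the pileup of that one. The most downstream start lay 728 bp outside the internal peak, so 2 of the 3 internal starts were in a peak.

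The peak that placed TJP1 highest among its end peaks, with 31.3 tags and a fold of 6.83, lay 592 bp beyond the lower end of the gene. TJP1 is on the minus strand, so this is the downstream end and not a start. Read at starts alone, the pileup of TJP1 was 49.4 tags, compared with a median of 47.1 tags over all protein-coding genes with a peak at a start. Between the upstream and the internal starts, a group of 4 peaks from 29924684 to 29939808 had 44.5, 48.2, 22.5 and 40.9 tags. The highest fold of the 55 peaks, 10.1, was at 29835265 to 29835692, 12797 bp upstream of the nearest start, a level that 0.558% of all peaks reached. TJP1 therefore held several internal regions about as high as its strongest start, and 49.0 kb of the gene in 1 stretch without any.

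The junctional adhesion molecule genes differed in the number of peaks, 7 at F11R and 1 at JAM2. F11R encodes JAM-A, which is present on endothelium, epithelium and platelets, and JAM2 encodes JAM-B, which is found mostly on endothelium. The peaks of F11R lay around 25.9 kb on chromosome 1. Those at its ends had 38.0 tags over 1519 bp (161020064 to 161021582) and 20.4 tags over 298 bp (160995319 to 160995616). An internal peak of 1276 bp from 161013196 to 161014471 was higher, with 60.3 tags and a fold of 5.29, and 6.28% of all peaks reached that pileup. Another internal peak, from 160997341 to 160997705, had 42.2 tags and a fold of 6.35. The ends of F11R were not assigned to start or stop.

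JAM2, 78.3 kb long on chromosome 21, had 1 peak in 98.3 kb searched. It lay inside the lower end, from 25639765 to 25640647, was 883 bp long and had 14.9 tags and a fold of 4.70 at the lowest background the caller allows, 2.37 tags. Of similar-length genes with an end peak, 93.3% had a pileup at least as high. The remaining 76.9 kb of the gene held no peak. The lowest pileup called anywhere was 8 tags, but calling also depends on the local background. A TJP1 peak with 26.15 tags over a background of 13.4 tags had a −log10 q of 1.45, compared with a lowest value of 1.04 over all peaks. Regions without a peak were thus not called at this depth, which does not show that they were closed.

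**Figure D2:**
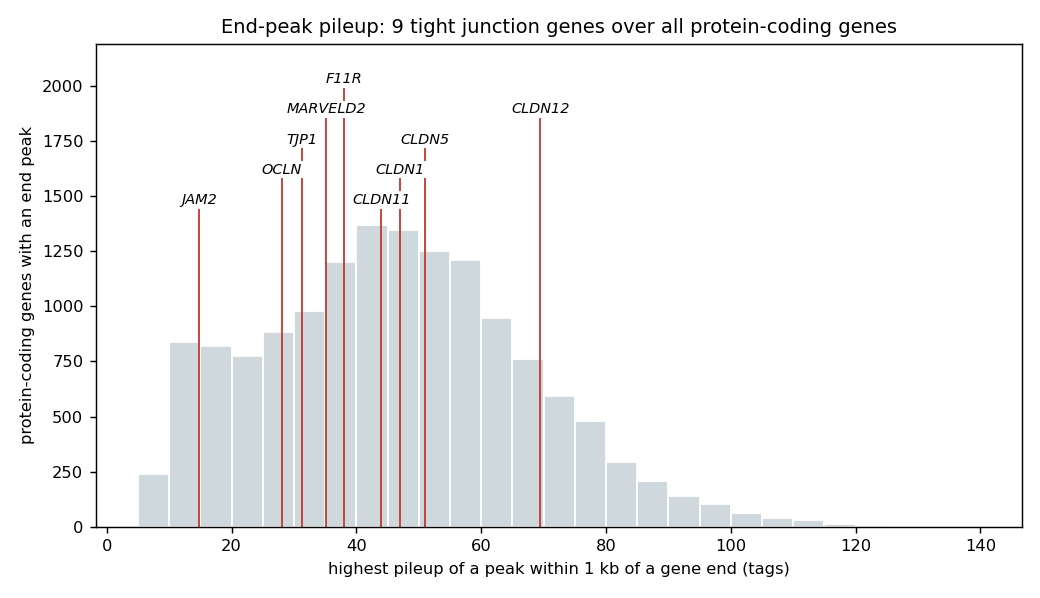
Highest pileup of a peak within 1 kb of a gene end, in tags (x axis), for all 14595 protein-coding genes with such a peak (grey histogram, y axis in genes) and for the 9 tight junction genes (red lines; their height has no meaning). JAM2 sits at 14.9 tags, CLDN12 at 69.5, and the other 7 between 28.0 and 51.0.

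Ordered by the highest pileup at an end, the genes ran CLDN12 (69.5 tags), CLDN5 (51.0), CLDN1 (47.0), CLDN11 (44.0), F11R (38.0), MARVELD2 (35.1), TJP1 (31.3), OCLN (28.0) and JAM2 (14.9). With 1 library, the spread between neighbours in this order could not be estimated. The median was 38.0 tags, compared with 45.7 tags (quartiles 30.5 and 60.2) over all genes with an end peak. Of the 9, 3 lay above that median, CLDN12, CLDN5 and CLDN1. In fold, 4 of 9 lay above the median of all genes of 5.02, and the median of the 9 was 4.70. The tight junction genes thus had an end peak in every case, and 6 of the 9 lay below the median pileup.

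Stricter rules for a peak were also applied. With −log10 q of at least 5, all 9 genes kept an end peak, against 66.7% of all protein-coding genes, and with at least 200 bp of overlap all 9 did, against 71.5%. In windows of 500 bp around the ends the count was 8, without JAM2, against 69.2%, and in windows of 2500 bp it was 9, against 79.2%. At a fold of at least 4 it was 6, against 56.0%: CLDN5, CLDN11 and F11R, with end folds of 2.82, 3.13 and 3.93, fell out. At that fold 8 genes had any peak within 10 kb, against 84.2%, and CLDN11 had none.

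**Figure D3:**
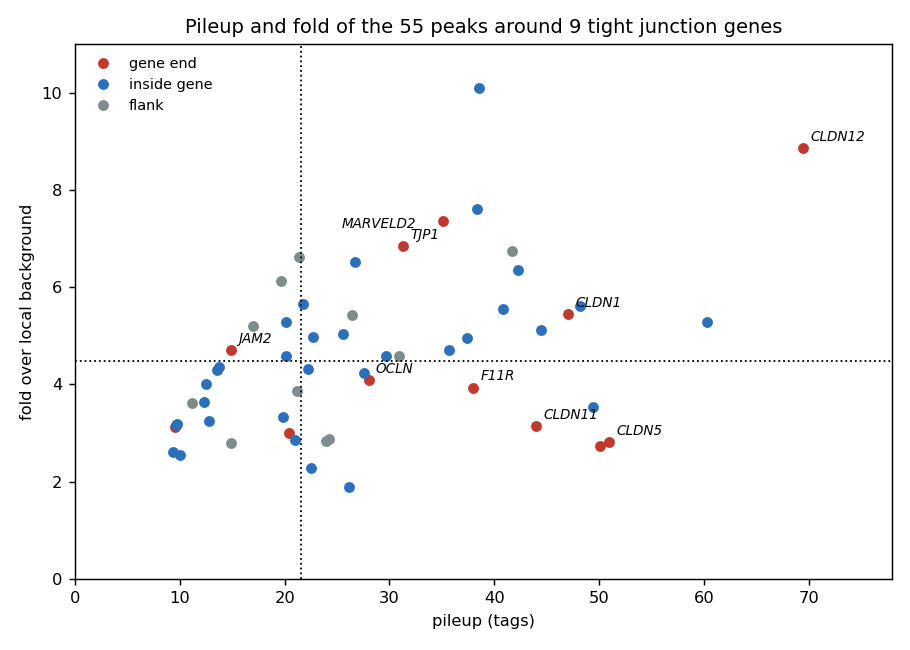
Pileup in tags (x axis) against fold over local background (y axis) for the 55 peaks, coloured by place; dotted lines are the medians of all 106415 peaks, 21.6 tags and 4.49-fold, and the highest end peak of each gene is named. CLDN5 and CLDN11 are high in pileup and low in fold, and CLDN12 is high in both.

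Pileup and fold ordered the genes differently. CLDN5 was second in pileup and had the lowest fold at its end peak, 2.82. JAM2, the lowest in pileup, had a higher fold of 4.70. The local backgrounds behind these values, 17.5 and 2.37 tags, differed more than the pileups did. Because the caller estimates background within 10000 bp in the same library, a long accessible stretch enters its own background, and how far it did so here was not tested.

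The number of peaks was set against protein-coding genes of similar length, within a factor of 0.8 of each gene's length in either direction, since longer genes hold more peaks. TJP1, with 23 peaks, stood above the median of 11 over 608 such genes, of which 18.3% had as many or more (95% Wilson interval 15.4% to 21.5%). F11R had 7 against a median of 3, and 13.0% of 2377 genes reached that (11.7% to 14.4%). OCLN had 8 against a median of 5, and 24.4% of 1905 genes reached that (22.5% to 26.4%). These 3 were the genes above the upper quartile of their length class, and none lay above its 95th percentile.

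CLDN11 had 5 peaks, CLDN12 4 and CLDN5 3, each above the median of its length class and equal to the upper quartile. CLDN1 and MARVELD2, with 2 peaks each, lay below a median of 3, and 79.8% and 82.3% of their length classes had as many or more. JAM2, with 1 peak against a median of 5, was the only one of the 9 below the lower quartile. Of 1763 genes of its length, 9.93% had 1 peak or none. In all, 6 genes lay above their median and 3 below.

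**Figure D4:**
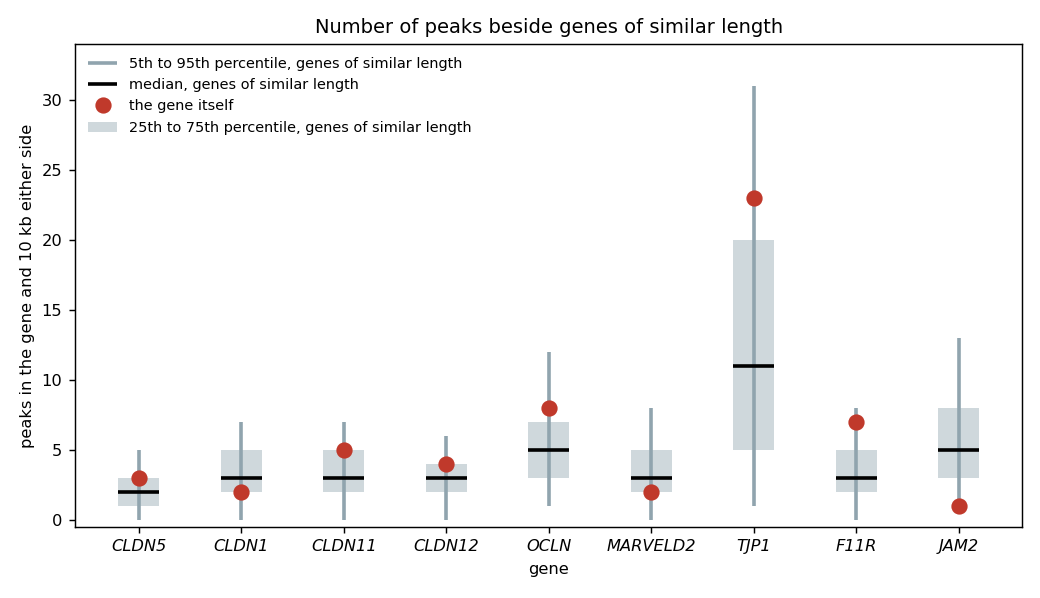
Number of peaks within each gene and 10 kb either side (red points, y axis) beside protein-coding genes of similar length (black line, median; grey box, 25th to 75th percentile; grey line, 5th to 95th percentile). TJP1, F11R and OCLN lie above the box and JAM2, with 1 peak, below it.

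Other tight junction genes were examined as a list of 50: the remaining claudins and MARVEL genes, plaque and scaffold proteins, other adhesion receptors, polarity proteins and junction-associated regulators. Of these, 33 had an end peak (66.0%, 95% Wilson interval 52.2% to 77.6%), an interval that includes the 72.8% of all protein-coding genes. The median end pileup was 35.9 tags. The highest were at USP53, whose product binds ZO proteins (91.3 tags), MAGI3, a junction scaffold (89.4), and CGN, which encodes the plaque protein cingulin (82.5). The lowest were at CLDN4 (8.64), MARVELD3 (9.73) and the neighbouring CLDN6 and CLDN9 (10.7, from a shared peak).

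The claudin family divided by member. Of the 20 other claudins, 7 had an end peak (35.0%, 95% Wilson interval 18.1% to 56.7%), while 26 of the 30 other junction genes did (86.7%, 70.3% to 94.7%), against 72.8% of all protein-coding genes. The 7 were CLDN23 (30.8 tags), CLDN15 (24.1), CLDN7 (21.1), CLDN3 (16.1), CLDN6, CLDN9 and CLDN4, and they rested on 6 distinct peaks. These shares were not matched for gene length. The 20 claudins ran from 663 bp (CLDN24) to 146005 bp (CLDN10), and of the 726 genes similar to CLDN5 in length, 59.6% had an end peak. CLDN2, which forms cation-permeable pores, CLDN8, CLDN10, CLDN14, CLDN16 and CLDN17 were among the 13 without one. CLDN8, CLDN17 and CLDN34 had no peak within 10 kb. CLDN3, which has been discussed as a brain endothelial claudin, had a fold of 3.10 at its end peak.

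CLDN5, CLDN1, CLDN11 and CLDN12 all lay above every other claudin in end pileup, at 44.0 to 69.5 tags against at most 30.8. Of all protein-coding genes with an end peak, 74.5% also lay above 30.8 tags, so the other claudins were low and these 4 were not unusually high. The 4 were listed as brain barrier genes with results of this library known, and the contrast is a description.

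**Figure D5:**
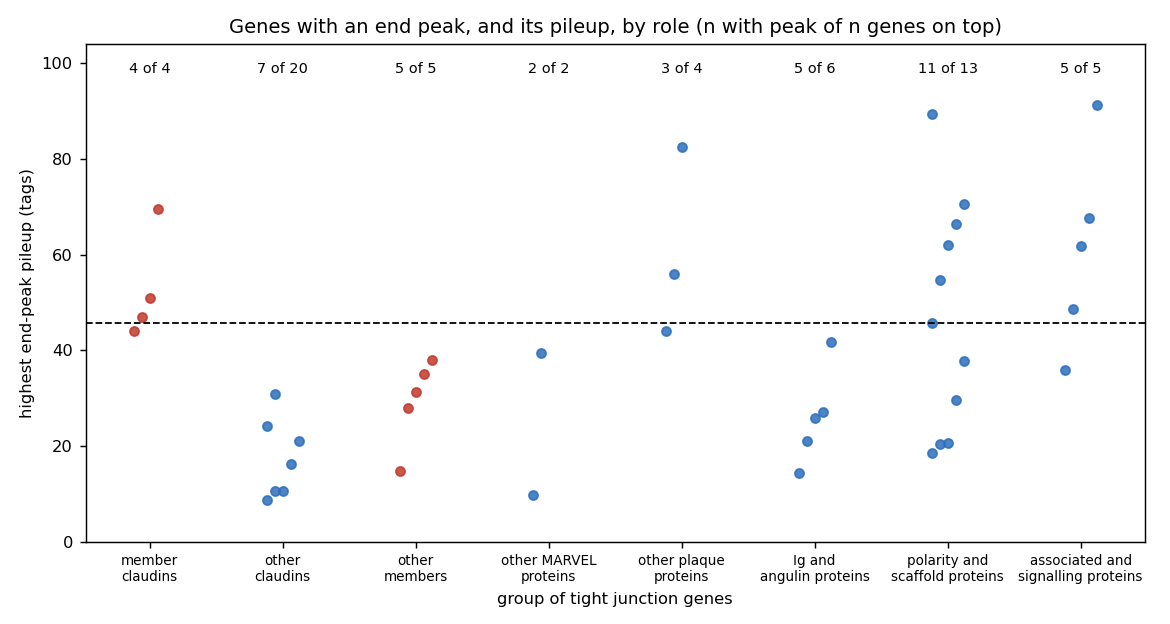
Highest end-peak pileup in tags (y axis) of the 9 genes (red) and of 50 other tight junction genes (blue), by role (x axis); each point is a gene with an end peak, counts on top give genes with an end peak of all genes in the group, and the dashed line is the median over all protein-coding genes, 45.7 tags. The other claudins have an end peak in 7 of 20 cases, and their points stay at or under 30.8 tags.

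In the remaining groups, both other MARVEL genes had an end peak, MARVELD1 at 39.5 tags and MARVELD3 at 9.73. Among plaque proteins, CGNL1, which encodes paracingulin, had 56.0 tags at an end. Among adhesion receptors and angulins, 5 of 6 had an end peak, with 14.4 to 41.8 tags. JAM3, the third junctional adhesion molecule gene, had 8 peaks and 25.9 tags at an end, compared with the 1 peak and 14.9 tags of JAM2. Of 13 polarity and scaffold genes, 11 had an end peak, with 18.4 to 89.4 tags. All 5 associated and signalling genes had one, at 35.9 to 91.3 tags. The Wilson intervals of these group shares all include the 72.8% of all protein-coding genes. The genes other than claudins without an end peak, named here after their values were seen, were TJP3, ILDR1, PRKCZ and CRB3.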

How the data were processed

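The ATAC peak list was made by the authors from 1 library with MACS 2.2.7.1 in broad mode, per the file headers: tags were shifted by -100 bp and extended to 200 bp, without a control, in single-end mode, with q thresholds of 0.05 (strong) and 0.1 (broad regions). Of 31532245 tags, 22188172 remained at 1 per position. The header gives an effective genome size of 1870000000 bp, a mouse preset, which sets the lowest background at 2.37 tags; a smaller size gives a higher floor and so lower folds at quiet sites. The deposited columns used were the pileup signal in tags, the fold enrichment ratio, the −log10 p-value and −log10 q-value (the authors' values for each peak) and, as another measure, length in bp. The submitters' processing notes name Bowtie2, SAMtools 1.13, Picard and the builds GRCh38 and mm10, with no role. The start windows were overlapped by a peak in 51.9% of cases as deposited and in at most 5.99% after moving peaks by 2 to 50 kb, so GRCh38 coordinates were used.

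Peaks were placed with Python 3.11.15 and pandas 2.3.3, requiring 1 bp of overlap; the placement was tested on simulated data. Local background was computed as (pileup + 1) / fold - 1, from values that broad mode gives as means over each peak. The gene table has no strand or exons. The genes and lists were chosen with earlier results of these data known. Genes named by rule were the 9, all peaks of theirs, other claudins with an end peak, the 3 highest, 3 lowest and up to 6 without an end peak of the wider list, and neighbours with an end at a peak. Further genes, among them MARVELD1, CGNL1, JAM3, CLDN34 and some marker genes, were named outside this rule. The values of 1 gene of the wider list are not reported here. Wilson intervals cover counting over genes only. Planned RNA levels per gene were not made, since the reference tables used here do not link transcripts to genes.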

Additional observations from a re-analysis of the deposited data

How the results depend on the processing

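The count of genes with an end peak, 9, was between 6 and 9 in every alternative run. Read at annotated starts alone it was 6 of the 6 genes with an entry. The 55 peaks became 33 at a fold of at least 4. The median per gene fell from 4 peaks to 2 with −log10 q of at least 5 and with a fold of at least 4, because fewer peaks enter. The median end pileup of 38.0 tags was 33.2 at a fold of at least 4 and 41.0 in windows of 500 bp. It was 42.2 in windows of 2500 bp and 45.5 at starts alone. The genes and peaks that entered differed. CLDN5, CLDN11 and F11R dropped out at that fold, JAM2 in windows of 500 bp, and CLDN5, F11R and JAM2 at starts alone. In windows of 2500 bp F11R rose to 42.2 tags and OCLN to 41.7, the latter from the peak at the start of GTF2H2C. TJP1 moved most, to 9.50 tags in windows of 500 bp and 49.4 at starts. The median share of similar-length genes with as many peaks, 38.0%, was 49.2% with a flank of 20 kb and near the reported value with a flank of 5 kb or a length range of 0.67 to 1.5 times. For CLDN11 it moved from 25.5% to 50.8% at 20 kb, and for F11R from 13.0% to 6.14% at 5 kb and 20.9% at 20 kb. Of 30 alternatives for these summaries 22 stayed near and 8 moved, and for single genes 93 of 119 stayed near. Near means a count within 1.5 times, a share inside its Wilson interval or an identical pileup. No paired analysis was possible because only replicate number 2 occurs in both assays, and no replicate could be left out. No peak under 8 tags was called, and calling also depends on the local background, which limits what an absent peak means.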

Other observations

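Beyond the 10 kb flank, 10 further peaks lay between 10 and 20 kb from 7 of the genes; CLDN11 and MARVELD2 had none there. The highest was on chromosome 21 from 25734251 to 25736162, 16.7 kb from JAM2, with 51.1 tags and a fold of 4.52, and it lay at the ends of ATP5PF, a subunit gene of the mitochondrial ATP synthase, and GABPA, an ETS transcription factor gene. It was 1912 bp long, compared with 883 bp and 14.9 tags for the only peak of JAM2 itself. CLDN1 had a peak of 838 bp 16.3 kb beyond its start, with 34.6 tags and a fold of 7.19, and CLDN5 a peak of 711 bp 18.6 kb away, with 20.0 tags and a fold of 5.97.

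Between MARVELD2 and OCLN, over 48.2 kb, there were 3 peaks, with 21.3, 9.98 and 19.7 tags and folds of 6.62, 3.25 and 6.13. All 3 were shorter than 500 bp and lower in pileup than the start peaks of both genes. The second and the last lay at ends of LOC101928924, a long noncoding RNA gene on the opposite strand to OCLN.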
